A study of Mus musculus with 200 samples.

Results

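Medullary thymic epithelial cells of Aire-knockout mice that carried little Aire-driven green fluorescent protein (KO GFPlo) were compared between 2 sort dates. Of 200 single cells in the series, 52 bore the KO GFPlo label, and the deposited metadata place 30 of them on the later date and 22 on the earlier date, 30 days apart. Both sets came from female B6xNOD mice aged 5 weeks with the genotype Aire KO and the AireGFP transgene, which marks cells using the Aire promoter. No treatment was given in the labels, and Aire wild-type (WT) mice of the series carried the same transgene. Both sets were sorted from digested thymus as CD45-, Ly51-, MHCII+ and GFPlo, 1 cell per well. CD45 was stained with an APC-Cy7 dye on the later date and a PE-Cy7 dye on the earlier one, per the file headers. No animal is named, so each date is 1 sample, no test across samples can be made, and animal, stain, cytometer setting, library pool and date cannot be told apart.

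Medullary thymic epithelial cells display proteins of other tissues to developing T cells. Aire, a nuclear regulator, opens many of these genes, and Fezf2, a zinc finger transcription factor, opens others. These cells are known to start as immature cells with basal keratins and the chemokine Ccl21a, to pass through a stage with Aire and high MHC class II, and then to take on keratinocyte-like and other specialised states.

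Levels are given in CPM, the counts of a gene per 1000000 counts summed over the cells of a date, with exact 95% Poisson intervals, and ratios of the later over the earlier date have exact 95% binomial intervals. Intervals of levels and ratios cover counting error of tags only, not the spread between animals or cells. Those given for shares of cells or wells treat the cells of a date as separate draws and leave out the spread between animals. The summed depth was 1169168 counts on the later date and 678072 on the earlier one. Per cell, depth ran from 2429 through a median of 24182.5 to 227660 counts on the later date, and from 8114 through 23115.5 to 101640 on the earlier date. Each date had 6 library pools, and no pool was shared. The duplicated share of mapped reads had a median of 81.6% on the later date and 52.3% on the earlier one, and 14 later cells lay above all earlier cells. After each cell was thinned to 10000 counts, a median of 2483 genes was detected in 28 later cells and of 2410.5 in 20 earlier cells, and 2 shallower cells of each date were left out. Side scatter separated the dates completely: it was 11065, 21068.5 and 46707 units (lowest, median and highest cell) on the later date and 2306, 3631.5 and 6015 on the earlier date. WT GFPlo cells had median side scatter of 21454 on the later date and 4873.5 on the earlier date.

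The label was met only in part by the defining genes. Krt8, a keratin of simple epithelia, had counts in 27 of 30 later cells and in 22 of 22 earlier cells. Epcam, an epithelial adhesion molecule, had counts in 18 of 30 later cells and 18 of 22 earlier cells. Ptprc, which encodes the CD45 antigen that the gate excluded, had counts in 20 of 30 later cells and 2 of 22 earlier cells. In KO GFPhi cells, which should lack it, Ptprc had counts in 9 of 39 later cells and 0 of 9 earlier cells, with median depths of 40730 and 65110. The Aire locus cannot check the genotype here, because the deleted stretch is not given in the labels and the tags are primed from the transcript's end. A summed level taken alone cannot tell fewer cells of a type from less RNA per cell. Positive cells and values per cell are therefore given beside the sums of some genes.

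Reporter fluorescence was lower on the later date. Reporter GFP intensity, in arbitrary cytometer units, was 337, 2515 and 6425 in the lowest, median and highest of the 30 later cells, against 2360, 8337 and 12224 in the 22 earlier cells. The median was 0.302 times that of the earlier date. The ranges overlapped, with 12 later cells below all earlier cells and 15 earlier cells above all later cells. WT GFPlo medians were 2290 on the later date and 5960 on the earlier date, and KO GFPhi medians were 28917 on the later date and 22708 on the earlier one. Surface MHC class II intensity overlapped nearly completely in KO GFPlo cells, with a lowest, median and highest value of 32894, 52754 and 138240 on the later date and 13718, 62546 and 133182 on the earlier date.

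**Figure D1:**
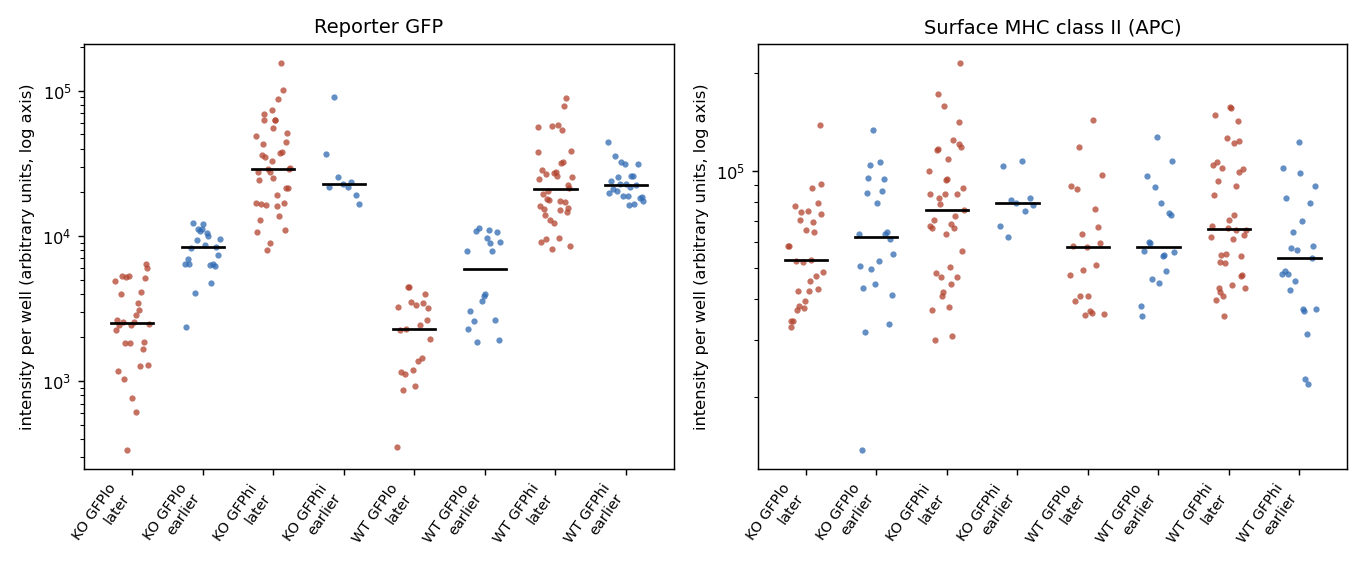
Reporter GFP (left) and surface MHC class II (right) intensity of each sorted well in arbitrary units on log axes, by group and sort date, with a line at each median. KO GFPlo cells of the later date have a median GFP of 2515 and those of the earlier date 8337, and WT GFPlo cells stand in the same order.

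The reporter's transcript was higher in sum on the later date and lower in the median cell. GFP transcript stood at 709 counts per 1000000 unique reads (672 to 748) on the later date and 300 (271 to 332) on the earlier date, a ratio of 2.36 (2.11 to 2.65). It was found in 21 of 30 later cells and 18 of 22 earlier cells. The median cell had 42.6 counts per 1000000 unique reads on the later date and 106 on the earlier one. The 2 leading cells held 66.8% of the later counts and 41.9% of the earlier ones. In WT GFPlo cells the order of the sums was the other way, at 28 on the later date and 529 on the earlier one. There the 2 leading cells held 74.1% of the later counts and 77.5% of the earlier ones. The median WT GFPlo cell had 0 on the later date and 38.3 on the earlier one. Sums on the later and earlier date were 3262 and 859 in KO GFPhi cells, and 1909 and 899 in WT GFPhi cells. Within a date, GFP intensity and GFP transcript had a Spearman correlation of 0.31 over the 30 later cells and 0.23 over the 22 earlier cells, a description over cells that share a date and a gate.

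Among 9465 genes with at least 20 counts over both dates, 31.7% were at least 2-fold higher and 25.6% at least 2-fold lower on the later date, so a 2-fold difference was common. The median log2 ratio over these genes was 0.13. One cell held over 50% of the higher date's counts in 33.1% of the higher genes and in 48.6% of the lower ones. A 2-fold difference is called broad below where the gene had at least 5 positive cells on the date where it was higher, no cell with over 50% of that date's counts, and 1 direction with cells weighted equally and in the absence of any pool. By that rule, 20% of genes were broadly higher and 12.1% broadly lower. Leaving out pool 11, which holds 649928 of the later counts, left 2136 higher genes of 8020 tested, against 2997 of 9465 with it.

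Genes of the Aire stage were lower in sum on the later date. Aire itself (chromosome 10, 78030022 to 78043610, minus strand, GRCm38) had 161 counts on the later date and 422 on the earlier one. The lowest, median and highest cell had 0, 16 and 833 CPM on the later date and 0, 519 and 2324 CPM on the earlier date. The ranges overlapped, but 7 earlier cells were above all later cells, and counts were present in 17 of 30 later cells and 18 of 22 earlier cells. Summed, Aire stood at 138 CPM (117 to 161) on the later date and 622 CPM (564 to 685) on the earlier one, 4.52-fold lower (3.76 to 5.45). One later cell held 47.2% of the later Aire counts. Without pool 11 the log2 ratio was -3.11, against -2.17 with all pools and -1.79 without pool 5 of the earlier date.

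Fezf2 was 0, 26 and 1347 CPM in the lowest, median and highest later cell, and 0, 754 and 3543 CPM in the earlier cells. Counts were present in 17 of 30 later cells and 21 of 22 earlier cells, and the sum was 5.04-fold lower on the later date (4.30 to 5.91). Aire and Fezf2 were found together in 11 later cells and 18 earlier cells. Of the 11 measured genes on the Aire-stage list, 6 were at least 2-fold lower, beside 25.6% of all genes tested, and 3 at least 2-fold higher, beside 31.7%. The list sum was 2388 CPM on the later date and 4166 CPM on the earlier date. Tnfrsf11a, which encodes RANK, the receptor that drives maturation of these cells, stood at 163 CPM on the later date and 524 CPM on the earlier one. Icosl, a T cell costimulator, stood at 860 CPM on the later date and 1242 CPM on the earlier date, short of 2-fold. Cd80, a costimulator of mature cells, stood at 16.3 CPM from 10 cells on the later date and 48.7 CPM from 4 cells on the earlier date, where 66.7% came from 1 cell.

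Signalling genes of the RANK and CD40 pathways summed to 3582 CPM on the later date and 5073 CPM on the earlier one. Of 14 measured members, 5 were at least 2-fold lower, beside 25.6% of all genes tested, and 1 was at least 2-fold higher, beside 31.7%. Traf2, a signalling adaptor, was 7.24-fold lower (4.08 to 13.7). Cd40, the receptor, stood at 228 CPM on the later date and 324 CPM on the earlier one. Nfkbia, an inhibitor of NF-kB and itself an NF-kB target, was nearly level at 1856 CPM on the later date and 1978 CPM on the earlier date. Tnfaip3, another inhibitor of this pathway, stood at 345 CPM on the later date and 108 CPM on the earlier date, where 97.3% of its counts lay in 1 cell.

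The genes most clearly lower on the later date were picked among those broadly lower and ranked by their ratio's interval. The broad rule asks for several positive earlier cells and no dominant one, so their spread over earlier cells follows from this choice. Their low later counts follow from the ranking. S100g, a calcium-binding protein of the gut, had 0, 0 and 254 CPM in the lowest, median and highest later cell, and 0, 616 and 7313 CPM in the earlier cells. It was present in 9 of 30 later cells and 20 of 22 earlier cells, and 16 earlier cells stood above all later ones. Its sum was 95.3-fold lower (56.5 to 175). Crip3, a LIM domain protein known from the thymus, was 159-fold lower (67.6 to 492) and had counts in 4 later cells and 18 earlier cells. Aif1l, an actin-binding protein, had 3 counts on the later date and 186 on the earlier one, a ratio of 0.00935 (0.00191 to 0.0278). Bcl2l1, which encodes the survival protein Bcl-xL, had 2 and 177 counts on the later and earlier date, a ratio of 0.00655 (0.000787 to 0.0240). Nfatc2, a calcium-regulated transcription factor, had 1 count on the later date and 184 on the earlier one, a ratio of 0.00315 (7.94e-05 to 0.0178).

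These genes were not missing from every later cell of the series. In KO GFPhi cells of the later date, S100g stood at 334 CPM, Crip3 at 612 CPM, Aif1l at 315 CPM and Bcl2l1 at 167 CPM. Zar1, Micall2, Tbx21, Zc3h6 and Cep63 had no count in the 30 later cells, and taking a floor of 3 summed counts they were at least 49.4-, 40.8-, 39.7-, 32.8- and 32.2-fold lower in that order. Tbx21 encodes the transcription factor T-bet, and Micall2 a protein of tight junction transport. Syn2, which encodes a synaptic vesicle protein, stood at 9.41 CPM on the later date and 451 CPM on the earlier one. Serpinb12, a protease inhibitor, had 2 and 146 counts on the later and earlier date.

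Tbata, a thymus gene of the stroma, was lower without being lost. Its lowest, median and highest cell had 0, 262 and 4674 CPM on the later date and 128, 1464 and 3691 CPM on the earlier date. It was present in 28 of 30 later cells and all 22 earlier cells, and the sum was 4.54-fold lower (4.05 to 5.10). Sirt1, a deacetylase known to act on Aire, stood at 67.6 CPM from 11 cells on the later date and 804 CPM from 20 cells on the earlier one. Of the 25 measured nuclear partners of Aire, 9 were at least 2-fold higher and 4 at least 2-fold lower, beside 31.7% and 25.6% of all genes tested. Supt16, the histone chaperone subunit with most counts of that list, was 1040 CPM on the later date and 870 CPM on the earlier date. Cxcl10, an interferon-induced chemokine, stood at 90.7 CPM on the later date and 1059 CPM on the earlier one, and 14 earlier cells were above all later cells. KO GFPhi cells also had less Cxcl10 on the later date, at 571 CPM, than on the earlier date, at 4121 CPM.

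**Figure D2:**
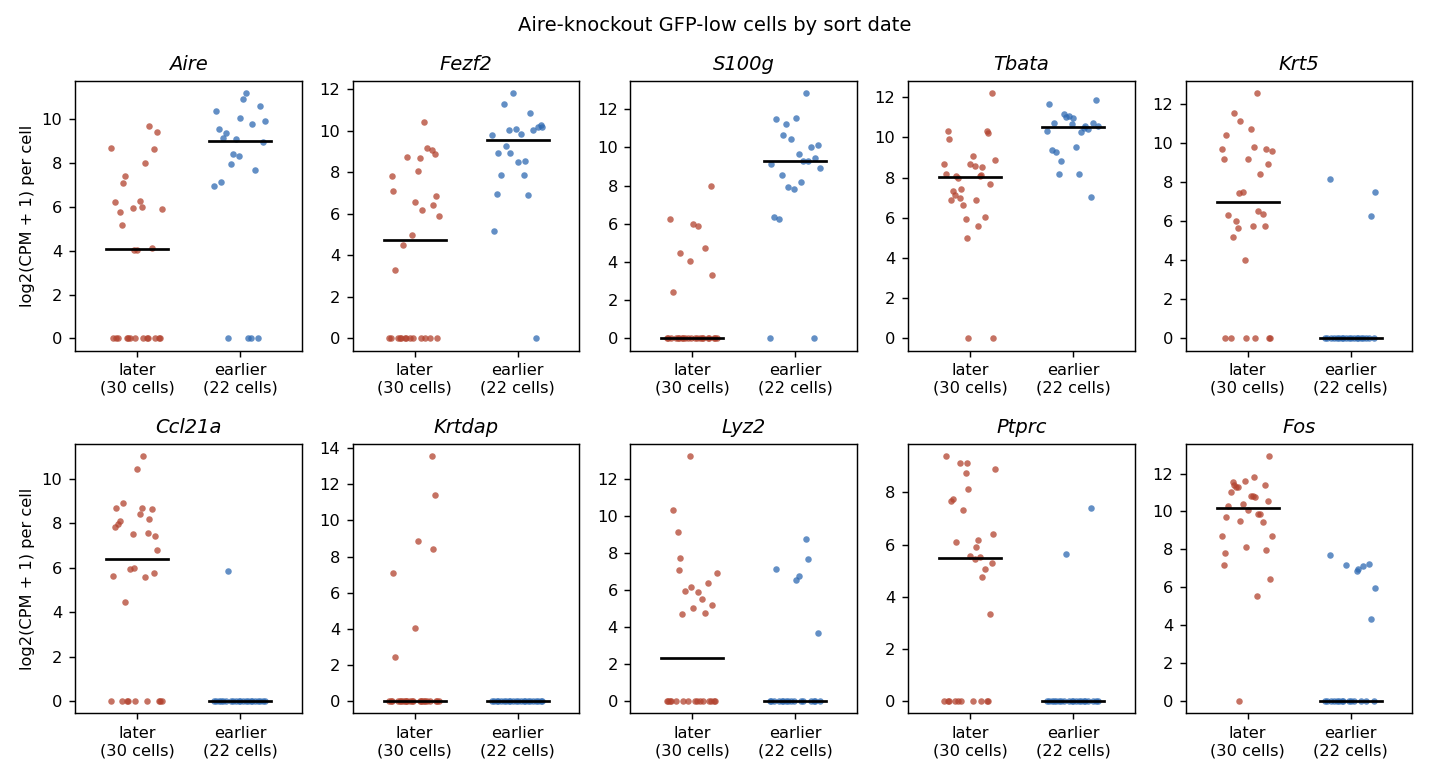
Level of 10 genes in each KO GFPlo cell as log2(CPM + 1), later date left and earlier date right, with a line at each median. Aire, Fezf2, S100g and Tbata lie lower on the later date, Krt5, Ccl21a, Ptprc and Fos lie higher, and Krtdap and Lyz2 reach their highest values in a few later cells.

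Genes of immature, basal medullary cells were higher on the later date. Krt5, a basal keratin, had a lowest, median and highest cell of 0, 132 and 6019 CPM on the later date and 0, 0 and 288 CPM on the earlier date. It was present in 24 of 30 later cells and 3 of 22 earlier cells, and 13 later cells lay above all earlier ones. Its sum was 464 CPM (426 to 505) on the later date and 20.6 CPM (11.3 to 34.6) on the earlier date, 22.5-fold higher (13.3 to 41.4). Krt14, the partner keratin of Krt5, was 4.12-fold higher (2.82 to 6.20) and present in 21 later cells and 4 earlier cells. With cells of the primers named umi in the labels alone (9 later and 3 earlier cells), Krt14 had a log2 ratio of -0.35.

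Ccl21a, the chemokine that draws developing T cells into the medulla, had 313 counts in 21 later cells and 1 count in 1 earlier cell. Its later cells ran from 0 through a median of 84.9 to 2063 CPM, and 17 of them stood above the single positive earlier cell. The ratio was 182 (32.3 to 7193). Ccl21a has near-identical copies, and how the authors' counting shared reads among them is not given in the sources used here. Krt5 and Ccl21a were found together in 18 later cells and 0 earlier cells. Of 10 measured members of the list, 6 were at least 2-fold higher and 1 was lower, beside 31.7% and 25.6% of all genes tested. The list sum was 2347 CPM on the later date and 1265 CPM on the earlier one. Krt17, the leading member, was 777 CPM on the later date and 615 CPM on the earlier date, and Itga6, a basal integrin, was 348 and 417 CPM on the later and earlier date. Krt15, named after its values were seen, had 44 counts in 6 later cells and 0 in the earlier cells.

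Within the later date, GFP of cells with and without Krt5 overlapped. Later cells with a Krt5 count had a median GFP of 2464.5, and the 6 without one 3035. Krt8 and Krt18, keratins of simple epithelia, were lower on the later date, 2.28-fold (2.07 to 2.51) and 2.27-fold (2.02 to 2.55). Without the 14 wells with more leukocyte than epithelial counts by the 6-gene rule given below, they were 1.47- and 1.38-fold lower, under 2-fold. That rule counts Krt8 and Krt18 on its epithelial side and so leaves out wells low in them. The smaller difference therefore follows in part from the rule. WT GFPlo cells also had more Krt5 on the later date, at 980 CPM, than on the earlier date, at 44.1 CPM.

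**Figure D3:**
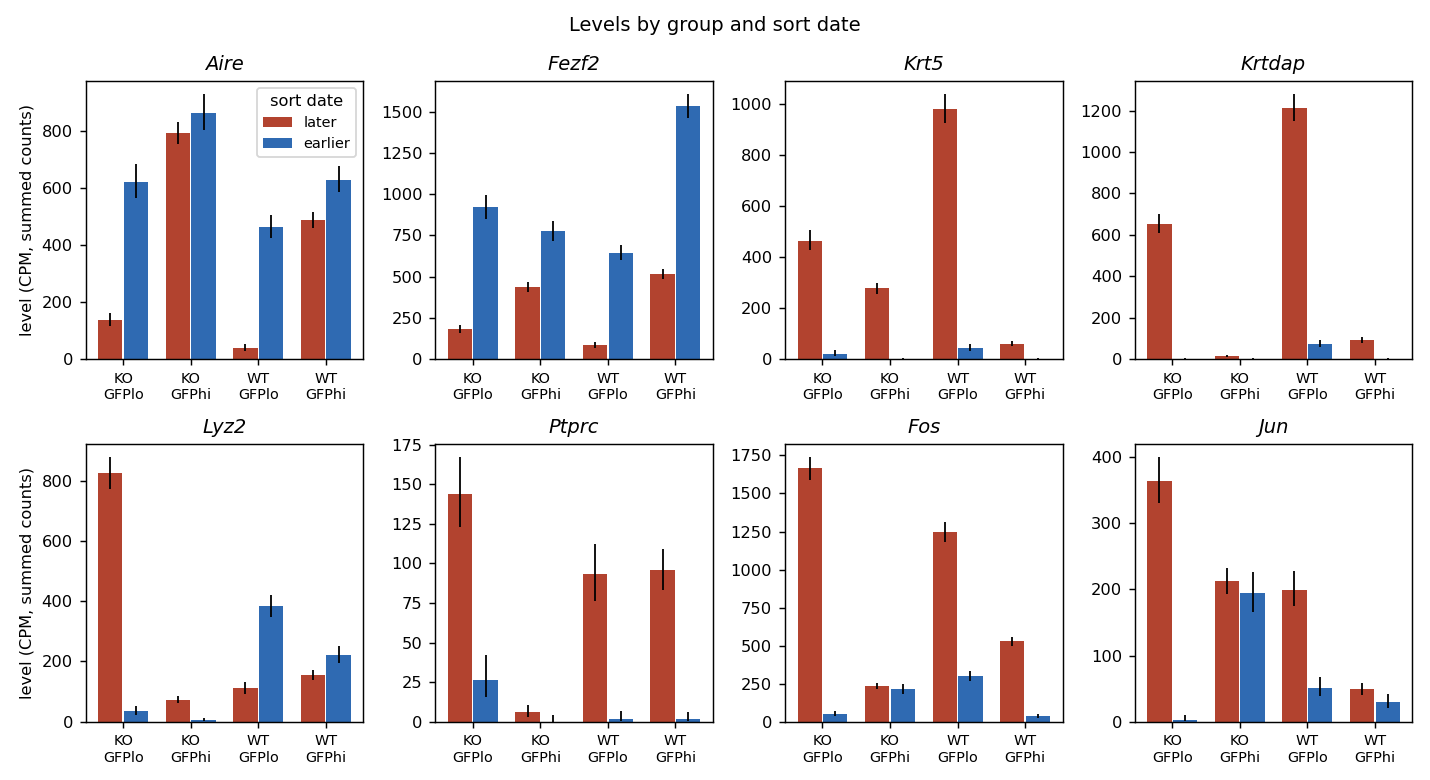
Summed level in CPM of 8 genes in the 4 groups, later date (left bar) and earlier date (right bar), with 95% Poisson intervals for counting error only. In KO GFPlo cells Aire is 138 CPM on the later date and 622 CPM on the earlier date, and Lyz2 is higher on the later date there but lower on the later date in WT GFPlo cells.

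Keratinocyte-like genes were high in a few later cells. Krtdap, a secreted protein of differentiating keratinocytes (chromosome 7, 30787896 to 30791097, plus strand, GRCm38), had counts in 7 of 30 later cells and 0 of 22 earlier cells, an exact upper limit of 15.4%. The later sum was 654 CPM (609 to 702) from 765 counts, and the earlier sum was 0 with an upper limit of 5.44 CPM. Against a floor of 3 counts it was at least 148-fold higher. The 2 leading wells, with 450 and 296 counts, held 97.5% of these counts, so the later level rests on 2 cells. The highest later cell reached 12082.5 CPM and the median later cell was at 0.

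Other keratinocyte-like genes lay in part in the same wells. Of the 7 later cells with Krtdap, 5 had Dmkn, a secreted epidermal protein, and 5 had Spink5, an epidermal protease inhibitor. Aire was found in 4 of the 7. Dmkn had 232 counts in 11 later cells and 0 earlier counts, and Spink5 had 388 counts in 7 later cells and 1 earlier count. Their leading pair of later wells held 86.2% and 82.5% of these counts. Krt77, a suprabasal keratin named after its values were seen, stood at 259 CPM on the later date and 1.47 CPM on the earlier date. Ly6d, a surface protein of stratified epithelia, was more evenly spread, with 442 CPM from 15 later cells and 117 CPM from 4 earlier cells. Krt10, a keratin of suprabasal skin, was 51.3 and 56 CPM on the later and earlier date, with a log2 ratio of -0.13 that became 1.95 without pool 1. Krt78, another stratified keratin, ran the other way at 70.1 CPM on the later date and 602 CPM on the earlier date, where 94.4% of counts came from 1 cell.

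Of 22 measured members of the cornified list, 18 were at least 2-fold higher and 1 lower, beside 31.7% and 25.6% of all genes tested. By the broad rule, 7 were higher and 0 lower, beside 20% and 12.1% of all genes tested. The list sum was 3604 CPM on the later date and 1251 CPM on the earlier date, but 1 cell held 46% of the later counts and 1 cell 55.1% of the earlier ones. The median cell had 584 CPM on the later date and 533 CPM on the earlier date. Sprr1a, a cornified envelope protein with close paralogs, was 253 CPM on the later date and 78.2 CPM on the earlier one.

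Lyz2, a lysozyme of macrophages and neutrophils (chromosome 10, 117277331 to 117282321, minus strand, GRCm38), had 965 counts on the later date and 24 on the earlier one. The lowest, median and highest cell had 0, 12.6 and 9668 CPM on the later date and 0, 0 and 435 CPM on the earlier date. Counts were present in 15 of 30 later cells and 6 of 22 earlier cells. The 2 leading later wells, with 627 and 289 counts, held 94.9% of the later sum, and 3 later cells lay above all earlier cells. The sum was 825 CPM (774 to 879) on the later date and 35.4 CPM (22.7 to 52.7) on the earlier date, 23.3-fold higher (15.6 to 36.6). Lyz1 lies next to Lyz2 and is nearly identical to it, so reads may be shared between them, and it had 1645 later and 17 earlier counts. Both were found together in 11 later cells and 2 earlier cells.

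How often wells had more leukocyte than epithelial counts on each date depended on the leukocyte genes counted. A well marked here had more counts over Ptprc, Coro1a, Cd48, Cd53, Cd37 and Itgb2 than over Epcam, Krt8 and Krt18, a rule chosen after the data were seen that leaves out leukocyte-list genes with counts in nearly all cells. It marked 13 of 30 later wells (43.3%, exact binomial interval 25.5 to 62.6) and 1 of 22 earlier wells (4.55%, 0.115 to 22.8). It marked 0 of 39 and 0 of 9 KO GFPhi wells of the later and earlier date, with upper limits of 9.03% and 33.6%, and 5 of 21 and 0 of 18 WT GFPlo wells. Of the 965 later Lyz2 counts, 951 lay in the marked wells, against 1 of the 765 Krtdap counts. A broader rule over 5 leukocyte lists marked 15 of 30 later wells (50%) and 13 of 22 earlier wells (59.1%), the opposite order. Cd52, Lcp1, Rac2 and Laptm5 of those lists had counts in 20 to 29 later cells and in at least 20 earlier cells. Without the wells marked by the 6-gene rule, Cd52 was 344 CPM on the later date and 904 CPM on the earlier one, 2.63-fold lower.

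Without the marked wells, 17 later and 21 earlier cells remained, and 32.1% of 7955 tested genes were at least 2-fold higher and 27.5% at least 2-fold lower. Lyz2 was then 24.7 CPM on the later date and 41.6 CPM on the earlier one, a ratio of 0.593 (0.284 to 1.19). Aire was 242 and 732 CPM on the later and earlier date, 3.03-fold lower. Krt5 was 854 CPM on the later date and 24.3 CPM on the earlier one. Krtdap was 1348 CPM on the later date and 0 on the earlier one, and Fos 1741 and 36.4 CPM on the later and earlier date.

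B cell genes were higher in sum on the later date, at 2802 CPM, than on the earlier date, at 1413 CPM, and stood at 1279 and 913 CPM in that order without the marked wells. Cd79a, a signalling chain of the B cell receptor, had 964 counts in 14 later cells and 80 in 2 earlier cells. Of these, 891 later counts and 75 earlier counts lay in marked wells. A single earlier well of 101640 counts held 75 of the 80 Cd79a counts and 17 of the 18 Ptprc counts. Ighm, the IgM heavy chain, had 123 counts in 16 later cells and 0 in earlier cells. Blnk, an adaptor below the B cell receptor, was lower on the later date, at 178 CPM, than on the earlier date, at 510 CPM, and had counts in 20 cells of each date. Of 14 measured members of the list, 9 were at least 2-fold higher and 1 lower, beside 31.7% and 25.6% of all genes tested.

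Myeloid genes were divided. The macrophage or dendritic cell list had 18 measured members. Of these, 9 were at least 2-fold higher and 1 lower, beside 31.7% and 25.6% of all genes tested. Only 1 was broadly higher, beside 20% of all genes tested. Tyrobp, a signalling adaptor of myeloid cells, had 250 counts in 10 later cells and 0 in earlier cells, and 247 of them lay in marked wells. Cybb, an oxidase subunit, was 265 and 255 CPM on the later and earlier date with all wells, and 109 and 246 CPM without the marked ones, 2.25-fold lower. Zbtb46, a dendritic cell factor, was 5.89-fold lower (4.13 to 8.56). The list sum was 4124 CPM on the later date and 1317 CPM on the earlier one with all wells, and 727 and 1292 CPM without the marked wells.

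**Figure D4:**
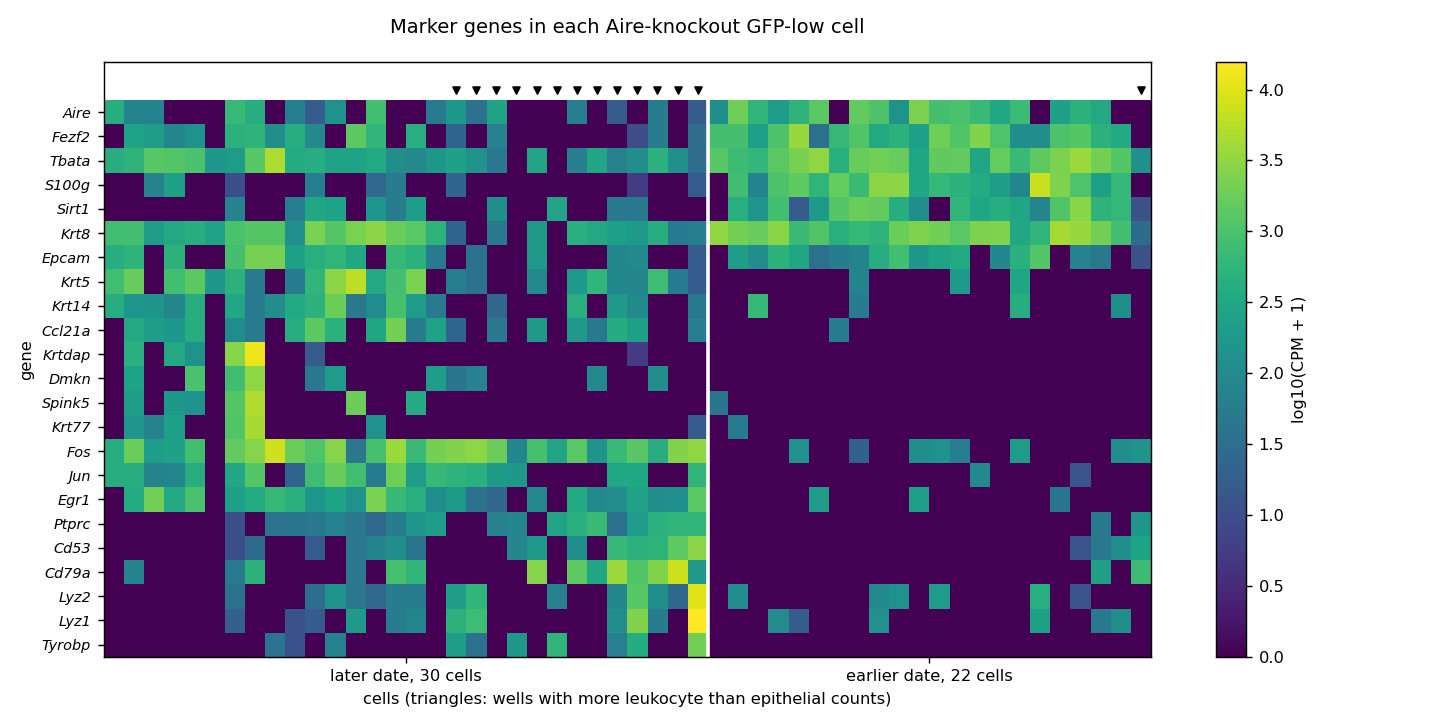
Level of 23 marker genes (rows) in each of the 52 KO GFPlo cells (columns) as log10(CPM + 1), later cells left of the white line and earlier cells right, with triangles over wells that had more leukocyte than epithelial counts. Triangles stand over 13 later wells and 1 earlier well, Lyz2 is brightest in a marked well, and Krtdap is brightest in wells without a triangle.

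Several of the 12 genes most clearly higher on the later date are known from leukocytes. These 12 were picked among those broadly higher and ranked by their ratio's interval. Their spread over later cells follows from this choice, and their low earlier counts follow from the ranking. Apoe, a lipid carrier made by macrophages and other cells, had 689 counts in 18 later cells and 0 in earlier cells, at least 133-fold higher. Rnase6 and Plac8, known from myeloid and lymphoid cells, each had counts in 11 later cells and 0 earlier cells, with later levels of 298 and 237 CPM. Snx20, a sorting nexin of leukocytes, had 285 CPM from 15 later cells and no earlier count. Gsn, an actin-severing protein, had 483 CPM from 22 later cells and 1 count on the earlier date. Rrad, a Ras-related GTPase, had 402 CPM from 17 later cells and no earlier count. Desi1, a deSUMOylating enzyme, and Nfkbid, a nuclear inhibitor of NF-kB, were each at 0 on the earlier date. KO GFPhi cells of the later date also held Rrad, at 350 CPM, and Apoe, at 189 CPM, but Rnase6 at 3.24 CPM.

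Immediate early genes, which cells switch on soon after a stimulus, were higher on the later date. Fos, which encodes a subunit of the AP-1 transcription factor, had counts in 29 of 30 later cells and 8 of 22 earlier cells. Its lowest, median and highest cell had 0, 1169 and 7777 CPM on the later date and 0, 0 and 206 CPM on the earlier date. The dates were nearly separate, with 26 later cells above all earlier cells. The sum was 1664 CPM (1591 to 1740) on the later date and 53.1 CPM (37.2 to 73.5) on the earlier date, 31.4-fold higher (22.6 to 44.9).

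Jun, the AP-1 partner of Fos, had 425 counts in 22 later cells and 2 counts in 2 earlier cells, a ratio of 123 (33.9 to 1021). Egr1, a zinc finger factor, and Fosb, a Fos relative, both named after their values were seen, were 24.6-fold (13.6 to 49.6) and 27-fold (17.2 to 45) higher. Jund, another Jun family member, was 1406 CPM on the later date and 251 CPM on the earlier one, and Nr4a1, an orphan nuclear receptor, had 94 later counts and 0 earlier counts. Of the 13 immediate early genes measured, 12 were at least 2-fold higher and 0 at least 2-fold lower. The exception was Junb, at 228 CPM on the later date and 292 CPM on the earlier one. Of the 7 heat shock genes measured beside them, 1 was at least 2-fold higher and 0 lower. Over all genes tested, 31.7% were at least 2-fold higher and 25.6% at least 2-fold lower. Hspa8, a constitutive chaperone and the member with most counts, was 4035 CPM on the later date and 3985 CPM on the earlier date.

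Fos in the other groups is given side by side. KO GFPhi cells had 235 CPM of Fos on the later date and 212 CPM on the earlier one, while WT GFPlo cells had 1244 and 298 CPM on the later and earlier date. None of these differences between groups was tested. In KO GFPlo cells without the marked wells, Fos had counts in 16 of 17 later cells and 7 of 21 earlier cells.

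The 200 bases before the annotated start of Fos, Dusp1 and Jun are shown because these genes were higher together, Dusp1 encoding a phosphatase that ends kinase signals. Fos lies at chr12:85473690-85473889 on the plus strand, Dusp1 at chr17:26508473-26508672 on the minus strand and Jun at chr4:95052223-95052422 on the minus strand, from RefSeq on GRCm38.p6. Capitals mark TGACGT on either strand, the core letters of the cyclic AMP response element, and the run of 8 capitals in Dusp1 holds overlapping matches on both strands.
Fos: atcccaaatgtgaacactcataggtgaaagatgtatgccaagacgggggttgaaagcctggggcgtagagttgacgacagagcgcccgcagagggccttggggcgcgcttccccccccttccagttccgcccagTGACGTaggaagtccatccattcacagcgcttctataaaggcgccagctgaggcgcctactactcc
Dusp1: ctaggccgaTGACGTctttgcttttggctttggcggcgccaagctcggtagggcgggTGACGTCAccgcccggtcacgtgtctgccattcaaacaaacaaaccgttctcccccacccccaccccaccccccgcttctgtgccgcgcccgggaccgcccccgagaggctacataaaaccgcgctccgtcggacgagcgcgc
Jun: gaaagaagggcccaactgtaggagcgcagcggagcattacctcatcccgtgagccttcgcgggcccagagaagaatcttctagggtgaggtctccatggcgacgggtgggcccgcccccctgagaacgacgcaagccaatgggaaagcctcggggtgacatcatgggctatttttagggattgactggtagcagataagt
The motif lay in at least 1 such window of 4 of the 17 list members with an entry (Atf3, Dusp1, Egr2 and Fos). Of all 32851 windows, 5.85% held it. That share is per window and the count is per gene, which may have several windows, so they cannot be compared directly. The Jun window holds no match. Dusp1 was 408 CPM on the later date and 109 CPM on the earlier one, with 79.7% of the earlier counts in 1 cell.

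Antigen presentation genes were close to level. Of 14 measured MHC class II genes, 2 were at least 2-fold higher and 2 lower, beside 31.7% and 25.6% of all genes tested. The list sum was 27581 CPM on the later date and 27031 CPM on the earlier one. H2-Aa, an MHC class II chain, had 5463 CPM on the later date and 4386 CPM on the earlier date, and counts in every cell. Its cells ran through medians of 4393 CPM on the later date and 4151 CPM on the earlier one. Cd74, the invariant chain, was 7693 and 10931 CPM on the later and earlier date. Of 16 measured MHC class I genes, 2 were at least 2-fold higher and 1 lower, beside the same 31.7% and 25.6%. B2m, the shared light chain, was 7055 CPM on the later date and 7630 CPM on the earlier one. Without the marked wells the class II sum was 0.706 times that of the earlier date (0.690 to 0.723).

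Proliferation genes were lower in sum on the later date, at 1179 CPM, than on the earlier date, at 2295 CPM. Of 22 measured members, 15 were at least 2-fold lower, beside 25.6% of all genes tested, and 3 at least 2-fold higher, beside 31.7%. By the broad rule 2 were lower and 1 higher, beside 12.1% and 20% of all genes tested. A single earlier cell held 64.3% of the earlier counts. Mki67, a marker of cycling cells, had counts in 13 later cells and 3 earlier cells, and 95% of its earlier counts lay in 1 cell. Top2a, a topoisomerase of dividing cells, was 133 CPM on the later date and 292 CPM on the earlier date. Without pool 2, which holds that earlier well, the log2 ratio of the sum was 0.55 and the list's median log2 ratio 0.79. Without the wells marked by the 6-gene rule, the sum was 868 CPM on the later date and 965 CPM on the earlier one. Then 6 of 14 measured members were at least 2-fold higher and 6 lower, beside 32.1% and 27.5% of genes tested. Top2a was then 136 CPM on the later date and 39.9 CPM on the earlier date, and Mki67 44.1 CPM on the later date and 13.9 CPM on the earlier date.

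Tissue-restricted genes differed gene by gene. Csn2, a milk casein, had 0, 111 and 23475 CPM in the lowest, median and highest later cell, and 19.7, 1995 and 9849 CPM in the earlier cells. It was present in 24 of 30 later cells and all 22 earlier cells, and the sum was 2.25-fold lower (2.09 to 2.42) although 1 later cell held 68.1% of the later counts. Without the marked wells, Csn2 was 1870 CPM on the later date and 2993 CPM on the earlier one. Calcb, a neuropeptide precursor, was present in 12 later cells and 22 earlier cells, at 375 CPM on the later date and 928 CPM on the earlier one, and at 757 and 1088 CPM in that order without the marked wells. Syt1, a synaptic vesicle calcium sensor, was 625 and 1190 CPM on the later and earlier date. Fabp6, a bile acid carrier of the gut, was 125 CPM on the later date and 875 CPM on the earlier date, where 1 cell held 90.4%. Saa1, an acute phase protein of the liver with a near-identical copy in Saa2, had 213 counts in 6 later cells and 0 earlier counts.

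**Figure D5:**
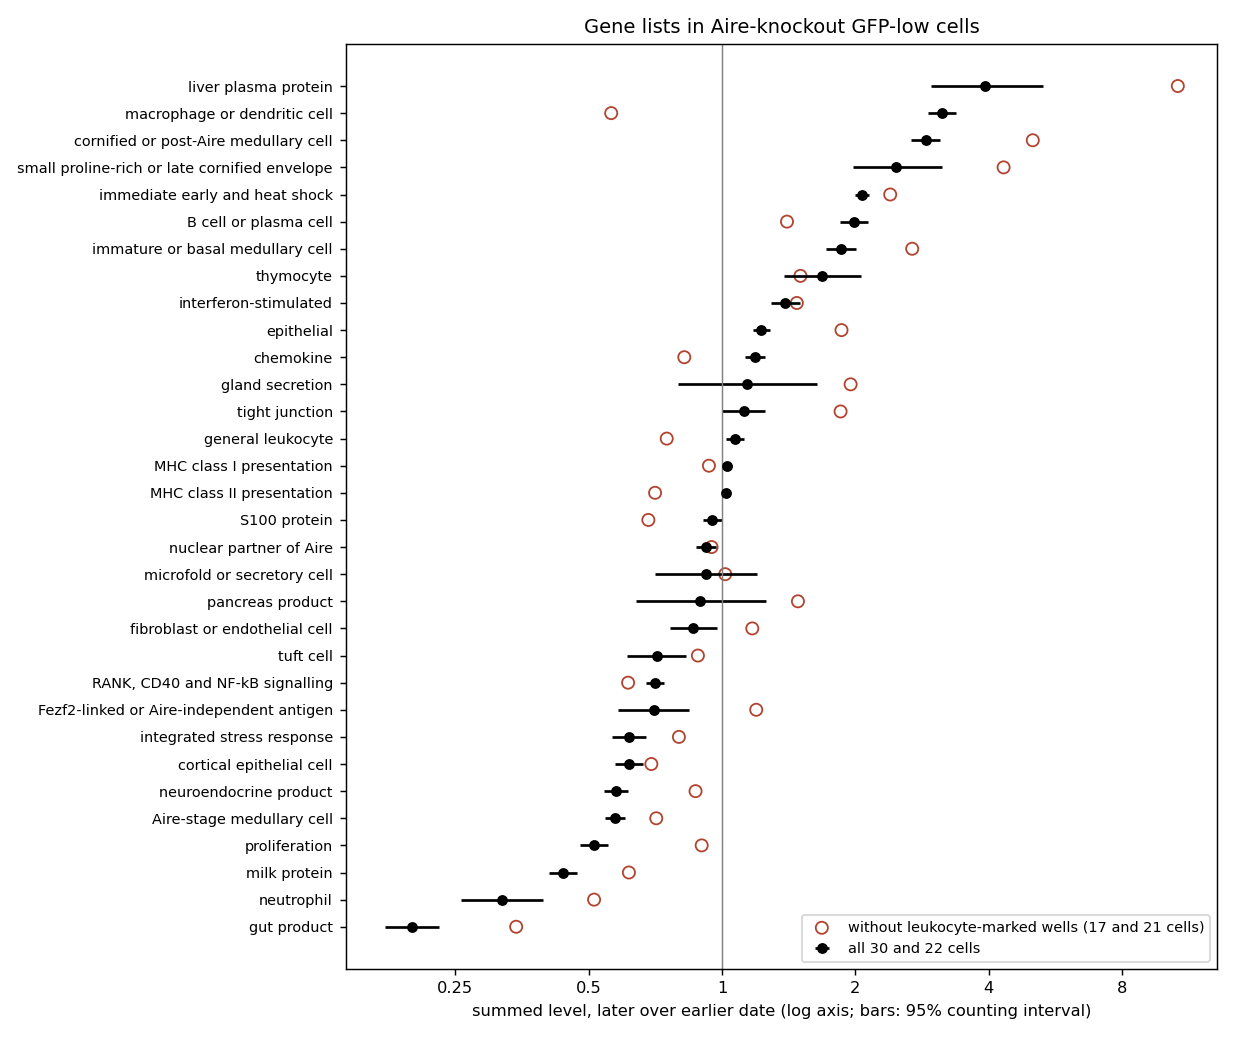
Summed level of each gene list on the later over the earlier date (log axis), for all KO GFPlo cells with 95% counting intervals (filled) and without the wells that had more leukocyte than epithelial counts (open). The macrophage or dendritic cell list is 3.13-fold higher with all wells and 0.562 times the earlier level without the marked ones, and the Aire-stage list is 0.573 and 0.711 times the earlier level.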

How the data were processed

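Single sorted thymic epithelial cells were sequenced from oligo-dT primed, in vitro transcribed RNA. The authors deposited whole-number counts per gene and cell, not normalized, for 38406 genes. Per the submitters' processing notes, TopHat, TopHat2, Picard 1.79, SAMtools 0.1.19, HTSeq and mm10 were used. Roles, strand setting and collapsing of molecular identifiers are not given in the sources used here, and 12 of the 52 cell totals exceeded the identifier count, so counts were read as tags. Per the file headers, the deposited metadata give cytometer intensity in arbitrary units, GFP transcript counts, primer, pool and sort date. 37 mitochondrial genes had 0 counts.

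Counts were summed per date (Python 3.11.15, pandas 2.3.3, numpy 2.4.6, scipy 1.17.1), and 0.5 was added to each sum for log2 ratios. Genes with at least 20 counts over both dates were compared, with 2-fold as the threshold. With 1 sample per date no test was made. Members, gene lists and named genes were chosen with earlier results of these data known. Named genes were a set of 14 listed genes, the 12 broadly highest and 12 broadly lowest by the interval bound nearest to 1, and, per list, the 3 most abundant members and the 2 whose ratios lay farthest out. Junb, Dusp1, Egr1, Fosb, Krt15 and Krt77 were named after their values were seen. The ratio and its interval were tested on simulated data. Alternatives were other weights, pools, primers, filters, thinning, wells and scaling (TMM, edgeR 4.0.16, R 4.3.3, factors 0.971 for the later and 1.03 for the earlier date). Gene positions are from GENCODE M21.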

Additional observations from a re-analysis of the deposited data

Results flagged for a closer look

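Genes and lists were flagged where both groups had at least 20 counts and differed at least 2-fold between dates in opposite directions. In 3 such cases the later date stood higher in KO GFPlo cells and lower in WT GFPlo cells, and none of these differences was tested. Others had the same order but fell short of these limits, such as the macrophage or dendritic cell list. Its log2 ratio was 1.65 in KO GFPlo and -0.57 in WT GFPlo cells. The proliferation list also fell short and had the opposite order, at -0.96 in KO GFPlo and 5.03 in WT GFPlo cells. The log2 ratio of Lyz2 was 4.51 in KO GFPlo and -1.77 in WT GFPlo cells, 6.289 apart. For the small proline-rich and late cornified envelope genes it was 1.30 in KO GFPlo and -4.94 in WT GFPlo cells, 6.241 apart. For liver plasma protein genes it was 1.96 in KO GFPlo and -1.53 in WT GFPlo cells, 3.488 apart. The KO GFPlo values of the 3 flagged cases rest on few cells. For Lyz2, 2 wells held 94.9% of later counts. A single well held 54.4% of the later small proline-rich counts, and 1 well held 49.1% of the later liver counts.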

How the results depend on the processing

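Values are log2 ratios of the later over the earlier date unless named otherwise, and the cause of each shift was not tested. Aire, at -2.17, stayed lower on the later date in every alternative run: -2.54 with cells weighted equally, -1.73 with ls primers alone, -4.11 with umi primers alone, -2.47 with cells thinned to 10000 counts, -1.21 without wells marked by 5 leukocyte lists, -1.60 without wells marked by the 6-gene rule, and -3.11 to -1.79 with each pool left out. Krtdap, at 9.79, stayed higher in every alternative that gave a value, and umi primers alone held no count. Lyz2, at 4.51, was 3.18 with cells weighted equally, 3.61 thinned, 0.054 without wells marked by 5 lists and 3.24 to 5.29 with each pool left out, and it reversed to -1.81 with umi primers alone and -0.73 without wells marked by the 6-gene rule, which was added after the data were seen. The number of genes tested changed with the setting, so counts of genes past 2-fold are given with it. Genes at least 2-fold higher numbered 2997 of 9465, and 1951 of 3884 with umi primers alone. They numbered 1372 of 4916 thinned, 1807 of 6430 with at least 50 counts and 5894 of 16781 with no filter. Genes at least 2-fold lower numbered 2420 of 9465, and 957, 1147, 1454 and 5520 under the same settings in that order. Without wells marked by 5 lists, 1404 of 6575 were lower. The share of leukocyte-marked wells, later minus earlier, was -9.09 percentage points by 5 lists, 38.8 by the 6-gene rule, and -20.6 to 10 with each pool left out. Reversed values of single genes were Cd80 at 2.38 with umi primers alone and 0.48 without wells marked by 5 lists, and Krt14 at -0.35 with umi primers alone. Reversed list values were the macrophage or dendritic cell sum at -0.18 and -0.83 without wells marked by either rule, the gut sum at 0.50 and median at 2.99 without wells marked by 5 lists, the proliferation median at 0.79 without pool 2 (-1.71 to 0.79 with each pool left out) and 0.24 without wells marked by the 6-gene rule, and, without the leading member, the liver median at -0.52 and the gland median at -0.15. The proliferation sum, at -0.96 and so under 2-fold, was 0.55 without pool 2, and Krt10, at -0.13, was 1.95 without pool 1. Of the other values of single genes and lists, 309 fell outside a band around the reported value and 1374 inside it. The band was the counting interval for genes and list sums, and the standard deviation of members either way for list medians. In that order, 44 and 49 of these changed direction. Changes of direction from reported values of at least 2-fold were counted as reversed, so by this rule these all came from values under 2-fold.

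No paired analysis was possible because the numbers given to cells follow accession order and each date is 1 sample. Depth limits zeros in single cells: with 2429 counts in the shallowest cell, a gene without a count there was not detectable at that depth, which does not show its absence.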

Other observations

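Chemokines and interferon-stimulated genes of KO GFPlo cells differed between the dates member by member. Of 16 measured chemokines, 8 were at least 2-fold higher on the later date and 5 lower, beside 31.7% and 25.6% of all genes tested. Ccl17, which attracts T cells through CCR4, had 169 counts in 10 later cells and 0 earlier counts. Ccl22, which binds the same receptor, was 1219 CPM on the later date and 444 CPM on the earlier one, where 1 cell held 85.0% of counts, and 90 and 78.1 CPM in that order without the wells marked by the 6-gene leukocyte rule. Ccl19, a CCR7 ligand, was 603 CPM on the later date and 948 CPM on the earlier date, and Ccl24 had no later count and 61 earlier counts. Of 18 measured interferon-stimulated genes, 9 were at least 2-fold higher and 4 lower, beside the same 31.7% and 25.6%. Among them, Ifit2 was 23.4-fold lower (11.9 to 52.3) with 89.3% of its earlier counts in 1 cell.

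S100 genes and cortical genes were also mixed. S100a4, a motility-linked calcium-binding protein, was 1298 CPM on the later date and 248 CPM on the earlier one, against the opposite order in S100g, and 570 and 291 CPM, under 2-fold, without the same marked wells. Ctsl, a lysosomal protease of cortical epithelium, was 280 CPM on the later date and 44.2 CPM on the earlier date, and Pax1, a factor of thymus epithelium, had 67 counts in 8 later cells and 0 earlier counts. Of the 8 measured cortical genes, 5 were at least 2-fold higher and 2 lower, beside 31.7% and 25.6% of all genes tested.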
